A study of Mus musculus with 3 samples.

Results

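Cajal-Retzius neurons of the mouse dorsal telencephalic midline were compared between embryonic days E11.5 and E12.5 with the help of 2 genetic reporters that had been pooled in 1 cell suspension. Members were chosen by measured values, namely quality, the neuronal and p73-pathway genes given here and the reporters: they were wild-type cells with at least 1000 genes, at least 2000 UMIs (unique molecular identifiers, which count captured mRNA molecules) and at most 10% mitochondrial UMIs. Per 10000 UMIs they had at least 8 of the neuronal genes Tubb3 plus Stmn2 and fewer than 20 of the choroid plexus gene Ttr, and they had at least 5 UMIs in all of Trp73 plus Cdkn1a. Of the 1291 cells that met this rule, 787 carried eYFP and no dtTomato and formed the E11.5 group, and 190 carried dtTomato and no eYFP and formed the E12.5 group. These 977 members were drawn from 22825 wild-type barcodes, of which 17626 passed the quality limits.

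The E11.5 embryos were PGKCre;Rosa26YFP, in which the Pgk promoter drives Cre broadly. The E12.5 embryos were Wnt3aCre;Rosa26tdTomato, in which Cre follows Wnt3a, a gene of the cortical hem, so that only descendants of Wnt3a cells should be red. All were on the C57BL/6J strain, 4 embryos were pooled per stage, and both stages went through 1 dissociation and 2 libraries of droplet 3′ RNA sequencing. The stage is therefore tied to the Cre line, the reporter and the lineage, and these cannot be told apart: the E11.5 group can hold Cajal-Retzius neurons of any origin in the dissected region and the E12.5 group should hold those of Wnt3a origin. The library from Gmnc-/- embryos was not used here.

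Cajal-Retzius neurons are among the earliest neurons of the cortex. They arise at several borders of the pallium, the cortical hem being a major one, migrate tangentially below the pial surface and secrete Reelin, which guides the layering of later neurons. Those of the hem express the p53 family factor Trp73 and, as newborn cells, genes of the multiciliation program such as Gmnc, Mcidas and Ccno, although they do not become multiciliated.

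Each stage was 1 pool of embryos and the libraries were repeats of 1 suspension, so no test was possible. Expression is given in CPM, which is 100 times the UMIs of a gene per 10000 UMIs of the stage group, with both libraries in order or with the libraries summed. Bracketed ranges are 95% intervals (exact Poisson for a level, conditional on the summed UMIs for a ratio, Clopper-Pearson for a share). They cover counting error only, and neither the spread between embryos nor that between cells. A gene was well measured with at least 30 UMIs and 20 CPM in the higher stage, and it was called higher or lower when it differed at least 1.5-fold in the sum and in each library.

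The libraries held 148073906 and 139978761 UMIs over all barcodes. The E11.5 members held 8082164 UMIs (median of 8536 per cell) and the E12.5 members 1955470 (8785 per cell), so the smaller E12.5 group set the precision. Well-measured genes differed at least 1.5-fold between the libraries in 28 cases at E11.5 and in 650 cases at E12.5. The libraries shared 1914 barcodes, and in such a pair the smaller profile had a median of 2.33% of the UMIs of the larger. No member was a member in both libraries, but 35 members had a barcode listed in the other library, and these were deep cells with a median of 28128 UMIs.

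The reporters that defined the groups were detected to a like degree in both libraries, and their values are given as a description. eYFP stood at 516 and 481 CPM in the E11.5 group, and dtTomato at 481 and 489 CPM in the E12.5 group. The E11.5 group made up 59.5% [55.7 to 63.2] and 62.6% [58.6 to 66.5] of the Cajal-Retzius neurons, and the E12.5 group 15.3% [12.7 to 18.2] and 14.1% [11.4 to 17.1]. A further 52 cells carried both reporters and 262 carried neither; these were left out of the comparison. Just inside the rule lay 98 E11.5 cells with exactly 1 eYFP UMI, 38 E12.5 cells with exactly 1 dtTomato UMI, and 31 members (24 and 7) with exactly 5 UMIs of Trp73 plus Cdkn1a. Just outside it, 24 and 23 gated neurons of the libraries had 4 such UMIs.

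**Figure D1:**
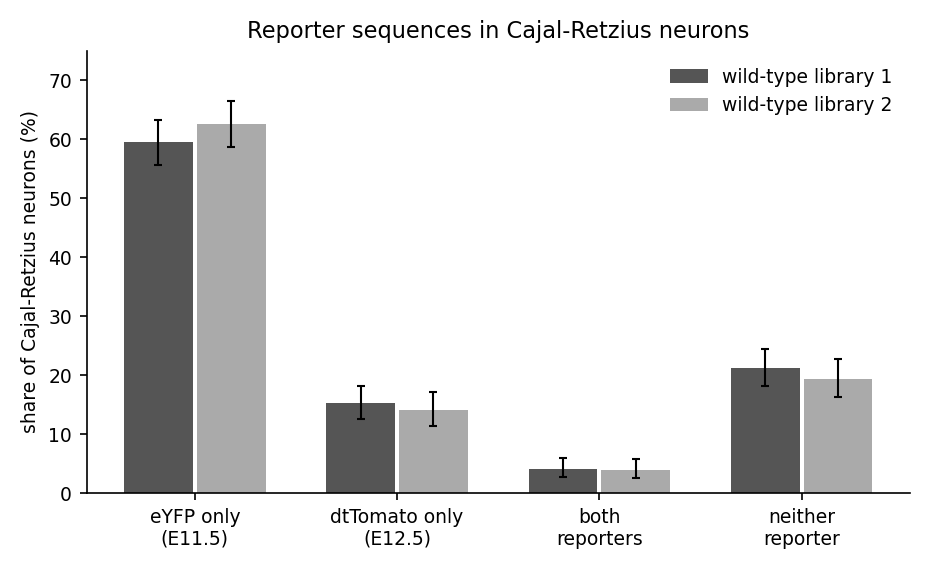
Share of Cajal-Retzius neurons (y axis, percent) by reporter sequence (x axis) in each wild-type library; bars are shares and lines are exact 95% binomial intervals. The libraries sit close together in every class: the eYFP group is at 59.5% and 62.6% and the dtTomato group at 15.3% and 14.1%.

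The background of each reporter was read in cells expected to lack it. Of 418 erythroid cells, which do not descend from Wnt3a cells, 6.22% [4.10 to 8.98] had a dtTomato UMI at a median of 17287 UMIs, and 1.44% [0.530 to 3.11] did after thinning each cell to 4000 UMIs. In Cajal-Retzius neurons, at a median of 8598 UMIs, the share was 18.7% [16.7 to 21.0], or 15.4% [13.4 to 17.5] thinned. Mesenchymal cells had a dtTomato UMI in 19.9% [15.8 to 24.6] of cases (8.18% thinned, at a median of 18338.5 UMIs) and microglia in 16.7% [9.42 to 26.4] (5.33% thinned, at 14851.5 UMIs). The share in Cajal-Retzius neurons thus lay above the intervals of all 3 cell types in thinned cells, but unthinned it lay within those of mesenchymal cells and microglia. dtTomato stood at 38.9 CPM in mesenchymal cells and 19.1 in microglia, against 4.54 in erythroid cells. Of the 67 mesenchymal cells with a dtTomato UMI, 27 had exactly 1. Whether the mesenchymal and microglial values are free RNA alone was not tested. Every E11.5 cell type can carry eYFP, so its background was read in the 814 cells with at least 5 dtTomato UMIs, where 18.3% [15.7 to 21.1] had an eYFP UMI and 9.21% had exactly 1; thinned, the share was 6.39% [4.81 to 8.29]. A single eYFP UMI is therefore weak evidence of the E11.5 stage. Of the 7922 cells with at least 5 eYFP UMIs, 2.68% [2.33 to 3.06] had a dtTomato UMI and 1.58% had exactly 1. Thinned, that share was 0.897% [0.701 to 1.13]. A single dtTomato UMI can thus be background too, though less often. The calls were repeated with at least 2 reporter UMIs, which gave 44 higher and 71 lower genes.

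Markers of other cell types were low in both groups. The 13 choroid plexus markers summed to 33.4 CPM at E11.5 and 31.2 at E12.5, with Kl and Trpv4 at 0, the 10 endothelial markers to 15.6 and 13.8, with Cdh5 and Tie1 at 0, and the 12 mesenchymal markers to 12.1 and 24.0, with Foxc2 and Ogn at 0. By library the mesenchymal sum was 12.4 and 11.9 CPM at E11.5 and 10.9 and 40.7 at E12.5, so the higher value came from library 2. The 10 GABAergic markers summed to 46.0 and 43.5, with Dlx6, Dlx6os1 and Slc32a1 at 0, and the 10 diencephalic markers to 79.6 and 78.8, with Gbx2, Nkx2-1 and Otp at 0. Microglial markers were uneven too: their sum was 13.9 and 133 CPM in the E11.5 libraries and 0 and 1.16 at E12.5. Of the Lyz2 UMIs (a macrophage lysozyme, 268 in all at E11.5 and 0 at E12.5) 267 came from 1 cell of library 2, so that call describes 1 cell.

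The first question was how far these neurons differed between stages. Few genes passed the fold limit. Of 6648 well-measured genes, 38 (0.572%) were called higher at E12.5 and 44 (0.662%) lower, and the median log2 ratio over all of them was 0.00. At a 2-fold limit 3 genes (0.0451%) were higher and 7 (0.105%) lower. Without the 35 members whose barcode was in both libraries the counts were 38 and 35, of which 26 and 24 were among the genes called with them. Single calls were less firm than the counts: few of the 35 genes that were called and met the rule for naming, among them Perp, Nkain4 and Idi1, kept their call under every alternative other than the 2-fold limit and the filter of 100 UMIs and 50 CPM. With a mitochondrial limit of 5%, 8 of the 38 higher and 21 of the 44 lower genes were called again. That limit left 322 E11.5 and 76 E12.5 cells, and the part of the smaller groups in the lost calls was not tested.

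**Figure D2:**
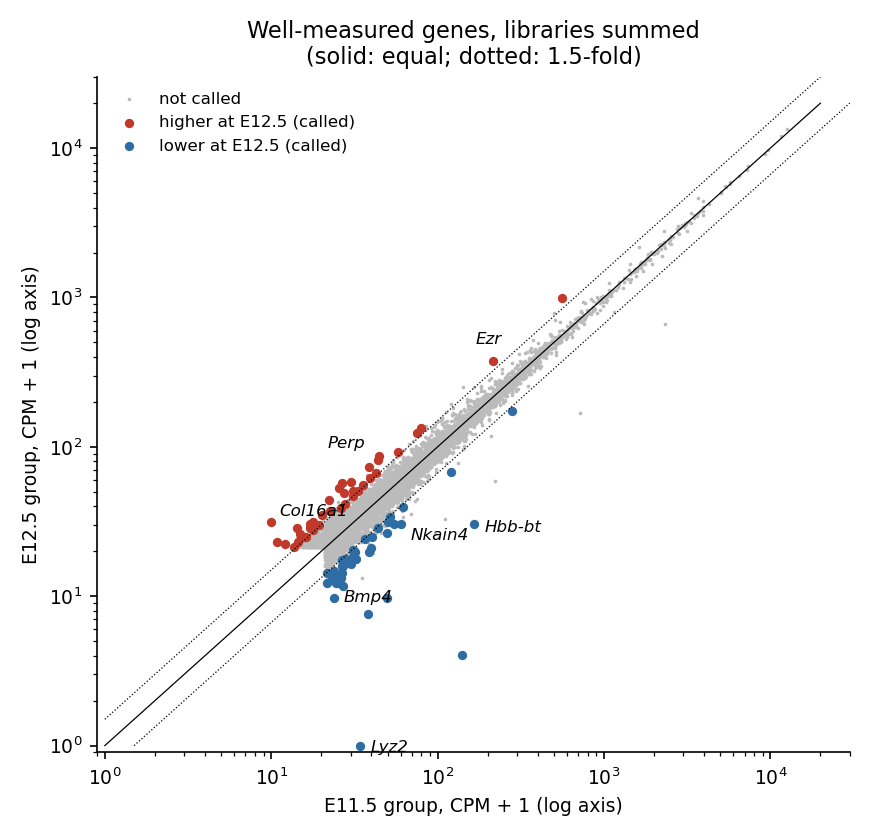
CPM + 1 of every well-measured gene in the E11.5 group (x axis, log scale) against the E12.5 group (y axis, log scale), libraries summed; red and blue points are genes called higher or lower at E12.5. The 38 red and 44 blue points are few among 6648 genes, and Lyz2, at 0 CPM at E12.5, comes from 1 cell.

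Genes of Cajal-Retzius identity were near level. None of the 17 well-measured genes of that list of 24 was called, 7 had a ratio above 1 and 7 a ratio below 1 in each library, against 28.4% and 28.3% of all well-measured genes, and the list median was 0.04 (log2), or 0.06 and −0.09 in the libraries alone. The LIM homeodomain factor Lhx1 had 267 and 308 CPM at E11.5 and 275 and 278 at E12.5, a ratio of 0.958 [0.871 to 1.05]. Nhlh2, a basic helix-loop-helix factor of these neurons, had 331 and 316 CPM at E11.5 and 318 and 298 at E12.5, a ratio of 0.957 [0.875 to 1.05]. For Lhx1 the E12.5 values lay between the E11.5 values, and for Nhlh2 the ranges of the stages overlapped.

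Within this list the ratios of several genes were away from 1 without reaching the limit for a call. Reln, which encodes Reelin, had 118 and 127 CPM at E11.5 and 166 and 169 at E12.5, a ratio of 1.36 [1.20 to 1.54]; both E12.5 values lay above both E11.5 values. After thinning to 4000 UMIs, 32.0% [28.7 to 35.4] of E11.5 cells and 37.8% [30.8 to 45.1] of E12.5 cells had a Reln UMI (53% and 64.7% unthinned), against 15.8% of erythroid cells. The shares of the stages have overlapping intervals, and both lie above the erythroid share.

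Ebf2, a neuronal helix-loop-helix factor, had 317 and 294 CPM at E11.5 and 348 and 363 at E12.5, a ratio of 1.16 [1.07 to 1.27]. Tbr1, a T-box factor found in young cortical neurons, had 381 and 405 CPM at E11.5 and 378 and 328 at E12.5, a ratio of 0.905 [0.832 to 0.982]. Lhx5, a LIM homeodomain factor, stood at 80.6 and 94.1 CPM at E11.5 and at 60.2 and 66.3 at E12.5, 1.39-fold [1.15 to 1.70] lower, with no overlap of the libraries. The limit for a call was reached by Lhx5 when at least 2 reporter UMIs were required (log2 −0.77). Calb2, which encodes the calcium-binding protein calretinin, had few UMIs at either stage (30.9 and 27.9 CPM at E11.5, 43.8 and 25.6 at E12.5), and its ratio of 1.22 [0.921 to 1.60] was not distinguishable from 1 at this depth.

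Other members of the list, singled out after their values were seen, were the chemokine receptor Cxcr4, which these cells use in migration, with 65.7 and 72.2 CPM at E11.5 and 99.5 and 89.6 at E12.5, and Cacna2d2, a calcium channel subunit, with 241 and 246 CPM at E11.5 and 327 and 332 at E12.5. Their ratios were 1.38 [1.16 to 1.63] and 1.35 [1.23 to 1.48]. In both, the E12.5 libraries lay above the E11.5 libraries.

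**Figure D3:**
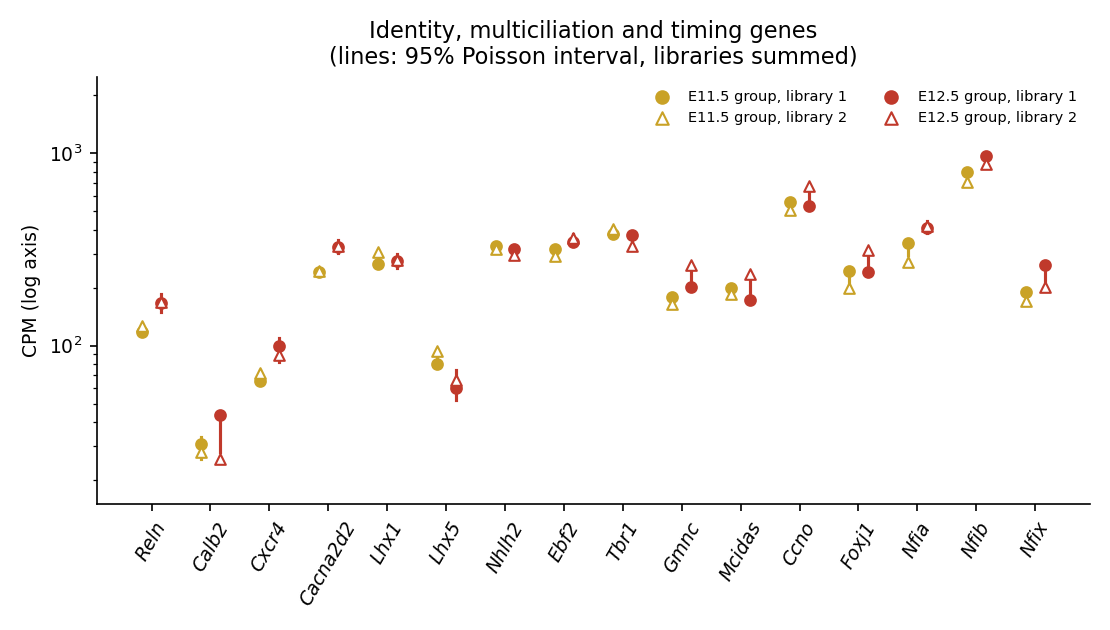
CPM (y axis, log scale) of identity, multiciliation and timing genes (x axis) in the E11.5 group (ochre) and the E12.5 group (red); filled circles are library 1, open triangles library 2, and lines the 95% Poisson interval of the summed libraries. Lhx1 and Nhlh2 overlap between stages, while Reln stands at 118 and 127 CPM at E11.5 and at 166 and 169 at E12.5; Cxcr4, Cacna2d2 and Nfix were added after their values were seen.

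Regulators of multiciliation were expressed at both stages. None of the 9 well-measured members of 14 was called (background of 0.572% higher and 0.662% lower). In each library 2 were above 1 and 2 below 1, against 28.4% and 28.3% of all genes, and the median was 0.16 (log2). Gmnc, a Geminin relative that starts this program, had 179 and 165 CPM at E11.5 and 203 and 262 at E12.5, a ratio of 1.33 [1.19 to 1.48]. Library 2 alone put Gmnc past the limit for a call (log2 0.66). Mcidas, which acts with E2f factors, had 199 and 185 CPM at E11.5 and 173 and 236 at E12.5, so that its libraries pointed in opposite directions (1.05 [0.937 to 1.17]).

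Ccno, needed for centriole production, had 560 and 509 CPM at E11.5 and 530 and 677 at E12.5, a ratio of 1.11 [1.04 to 1.19]. Foxj1, a forkhead regulator of motile cilia, had 246 and 199 CPM at E11.5 and 242 and 313 at E12.5, a ratio of 1.23 [1.12 to 1.36], and library 2 alone passed the limit (log2 0.65). For Ccno and Foxj1, too, library 1 was slightly lower and library 2 higher at E12.5, so neither direction held in both libraries. Among 12 well-measured deuterosome and centriole genes, 1 was called lower (0.662% of all genes were). In each library 3 were above 1 and 4 below 1, against 28.4% and 28.3% of all genes. The called gene was Sass6, the scaffold of the centriole cartwheel, with 50.5 and 51.4 CPM at E11.5 and 32.8 and 32.6 at E12.5 (1.56-fold [1.19 to 2.06] lower). Of 10 well-measured motile cilia components none was called, 4 were above 1 and 2 below 1 in each library, and the median was 0.20. The sign of these medians depended on the library: library 1 alone gave −0.03 for the multiciliation regulators, −0.30 for the deuterosome and centriole genes and −0.13 for the motile cilia components, and library 2 alone gave 0.35, 0.35 and 0.34.

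Targets of the p53 family and cell death genes leaned towards E12.5. Of 17 well-measured members of 25, 12 had a ratio above 1 in each library and 2 a ratio below 1, against 28.4% and 28.3% of all genes, and the median was 0.25 (log2). The call was reached by Perp alone, a p53 family target in desmosomes and cell death (0.572% of all genes were called higher). It had 43.8 and 41.9 CPM at E11.5 and 72.1 and 90.8 at E12.5, 1.88-fold [1.54 to 2.27] higher. The libraries of the stages did not overlap. Perp UMIs were found in 14.7% [12.2 to 17.3] of E11.5 cells and 24.5% [18.5 to 31.3] of E12.5 cells thinned to 4000 UMIs (25.9% and 39.5% unthinned) and in 0.480% [0.0581 to 1.72] of erythroid cells.

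The p53 list was closer to level without the cells of top doublet score, ranked by likeness to simulated pairs of cells. There, 10 of the 17 were above 1 and 2 below 1 in each library, with a median of 0.17. With at least 2 reporter UMIs, 9 were above 1 and 3 below 1, with a median of 0.18. With the mitochondrial limit of 5%, 13 were above 1 and 0 below 1, with a median of 0.26. Cdkn1a, a cyclin-dependent kinase inhibitor and p53 family target, belongs to the rule that chose the cells, so its 1644 and 1596 CPM at E11.5 and 2091 and 2312 at E12.5 are a description, as are the 310 and 293 and the 338 and 363 CPM of Trp73.

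Late timing genes leaned towards E12.5 without a call. None of 14 well-measured late timing genes was called, 8 were above 1 and 3 below 1 in each library, against 28.4% and 28.3% of all genes, and the median was 0.17 (log2), or 0.06 without the top doublet scores. Nfia, a nuclear factor I that accompanies neuronal maturation, had 343 and 273 CPM at E11.5 and 411 and 420 at E12.5, a ratio of 1.35 [1.25 to 1.46], and its relative Nfib 798 and 706 and 964 and 878 CPM (1.23 [1.17 to 1.30]). Library 2 alone put Nfia past the limit (log2 0.62). Early timing genes had a median of 0.00 over 7 members and no call. Hmga2, a chromatin protein of early progenitors, had 56.1 and 72.6 CPM at E11.5 and 47.4 and 44.2 at E12.5 (1.41-fold [1.12 to 1.78] lower, with log2 −0.70 in library 2 alone), and Lin28b, which blocks let-7 maturation, had 50 UMIs at E11.5 and 6 at E12.5, too few for a direction.

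Among the genes called higher, the largest ratio belonged to Col16a1, a fibril-associated collagen, with 9.01 and 8.81 CPM at E11.5 and 22.8 and 39.6 at E12.5, 3.39-fold [2.36 to 4.85]. Its higher E12.5 value was in library 2, where the mesenchymal marker sum was also higher (40.7 against 10.9 CPM). Cells that failed the Tubb3 plus Stmn2 or Ttr limits, which include mesenchymal cells, had Col16a1 at 0.710 CPM with eYFP and 0.889 with dtTomato. The part of mesenchymal RNA in the ratio was not tested. The log2 ratio in library 1 alone was 1.25. Thinned, 3.60% [2.40 to 5.16] of E11.5 cells and 11.7% [7.48 to 17.2] of E12.5 cells had a Col16a1 UMI (7.50% and 19.5% unthinned), and 0 of 417 erythroid cells, which allows a share of up to 0.881%. Sstr2, a somatostatin receptor that marks newborn pallial neurons, had 29.1 and 29.1 CPM at E11.5 and 49.3 and 67.5 at E12.5 (1.97-fold [1.56 to 2.48]). In both of these genes the E12.5 libraries were above both E11.5 libraries.

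Ezr, which encodes ezrin, a linker of membrane and actin cytoskeleton, was the most precisely measured of the higher genes, with 1721 UMIs at E11.5 and 731 at E12.5. It had 200 and 225 CPM at E11.5 and 371 and 377 at E12.5, 1.76-fold [1.61 to 1.92] higher. Foxo1, a forkhead factor downstream of insulin signalling, had 26 and 26.9 CPM at E11.5 and 42.9 and 54.7 at E12.5. Rasl11b, a small GTPase, had 35.3 and 40.3 CPM at E11.5 and 79.4 and 64.0 at E12.5, and Nckap5 26 and 25 and 60.2 and 51.2. The RNA-binding splicing factor Rbfox1 had 20.6 and 21.9 CPM at E11.5 and 34.7 and 53.5 at E12.5, and Hip1r, a clathrin-associated protein, 14.7 and 12.1 and 30.1 and 24.4. Further higher genes were Col2a1, Cyp4f16, Ice2 and BC051142, with folds from 1.79 for Col2a1 to 2.22 for BC051142; the direction of BC051142 turned (log2 −0.44) with the mitochondrial limit of 5%.

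Among the genes called lower, Bmp4, a signal of the dorsal midline, had 22.7 and 24.1 CPM at E11.5 and 10.0 and 12.8 at E12.5, 2.08-fold [1.33 to 3.40] lower. Ccnd1, the G1 cyclin D1, had 21.1 and 26.9 CPM at E11.5 and 10.9 and 11.6 at E12.5, 2.14-fold [1.38 to 3.50] lower. Bach2, a transcriptional repressor, had 27.3 and 25 CPM at E11.5 and 10.9 and 10.5 at E12.5, 2.43-fold [1.55 to 4.01] lower. All 3 had 22 or fewer UMIs at E12.5, their libraries did not overlap, and Bmp4 and Ccnd1 lost their call without the members whose barcode was in both libraries (log2 −0.92 and −0.63). Without the cells of top doublet score none of the 3 kept its call (log2 −0.35 for Bmp4, −0.52 for Ccnd1 and −1.08 for Bach2). In thinned cells Ccnd1 UMIs were found in 5.91% [4.36 to 7.81] of E11.5 cells, 3.19% [1.18 to 6.82] of E12.5 cells and 4.56% [2.77 to 7.02] of erythroid cells (12.8% and 8.42% of the neurons unthinned), so the neuron shares were not above the erythroid share. Erythroid cells also had the cell cycle gene Ccnb2 in 26.9% of cases, so their Ccnd1 share need not be free RNA.

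Better measured were Nkain4, which encodes a protein that binds the sodium pump, with 57.4 and 60.3 CPM at E11.5 and 31.9 and 26.8 at E12.5 (1.99-fold [1.51 to 2.66] lower), and Idi1, an enzyme of isoprenoid and cholesterol synthesis, with 36.6 and 40.5 and 20.1 and 19.8 CPM (1.94-fold [1.38 to 2.77]). Unc5b, a netrin receptor, had 28.6 and 29.8 CPM at E11.5 and 14.6 and 16.3 at E12.5. It was the only call among 23 well-measured guidance, adhesion and migration genes (0.662% of all genes were called lower). In each library 6 of the 23 were above 1 and 7 below 1, against 28.4% and 28.3% of all genes. Chl1, a cell adhesion molecule, had 21.4 and 29.5 CPM at E11.5 and 13.7 and 12.8 at E12.5, but was lower in the most mature of 3 tertiles of a maturation score alone (62.5 and 25 CPM; log2 0.66 and 0.49 in the others). Slc1a2, a glutamate transporter, had 30.4 and 32.4 and 19.2 and 14.0. The other lower genes by the rule were Samd3, Ybx3, Ppp1r9b, Dpf1, Hist1h1b, Lgals1 and Lyz2. For Lgals1, 39.7% of the E11.5 UMIs came from 1 cell, and without the top cell of each stage its log2 ratio was −0.76.

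**Figure D4:**
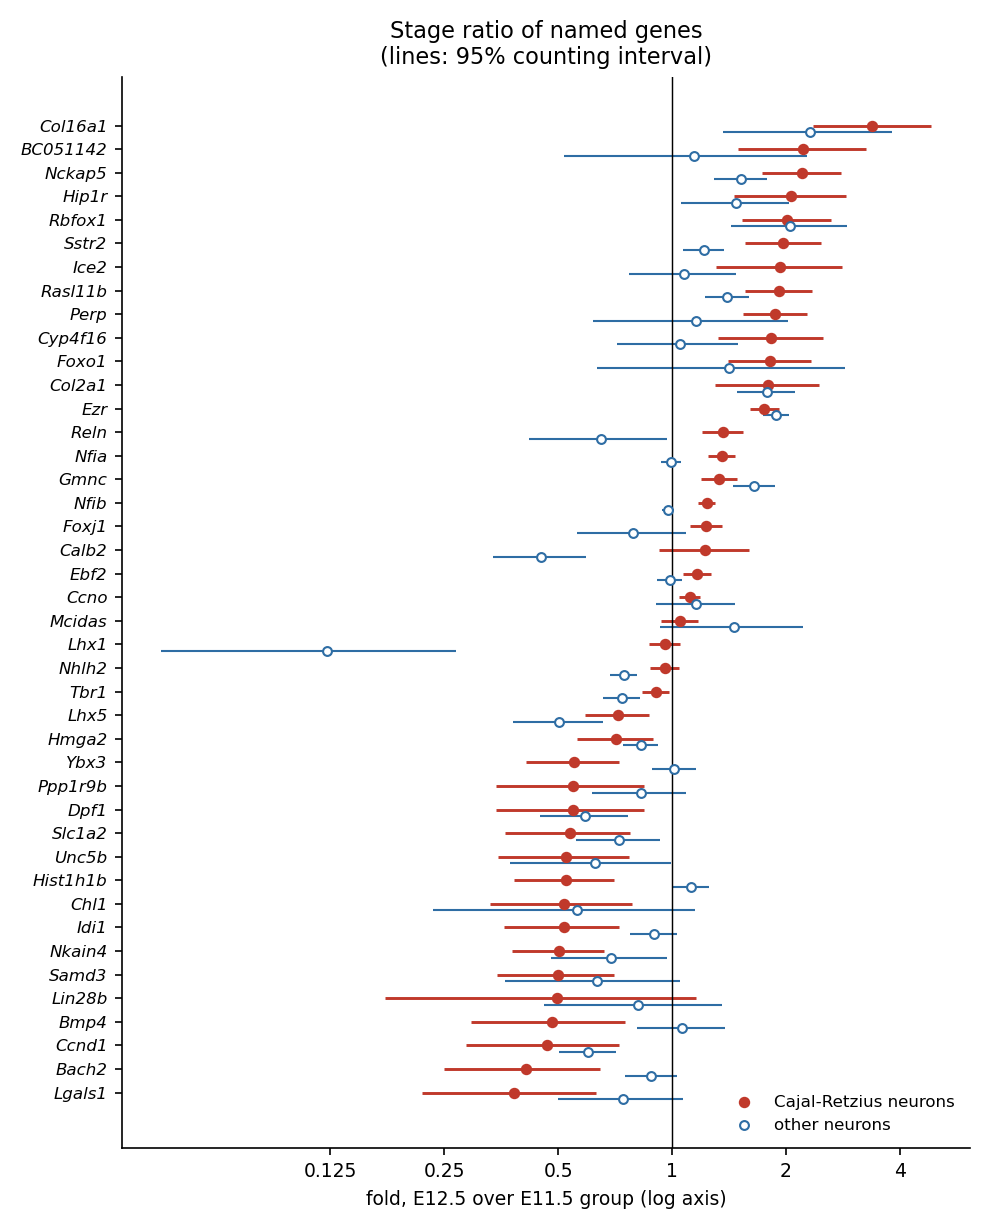
Ratio of the E12.5 to the E11.5 group (x axis, log scale) for genes described in the text (y axis) in Cajal-Retzius neurons (red) and in other neurons of the same suspension (blue); points are ratios of the summed libraries and lines 95% counting intervals; Lyz2 is not drawn. Ezr is near 1.8 in both kinds of neuron, while Reln is above 1 in Cajal-Retzius neurons and below 1 in other neurons.

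On build GRCm38, Col16a1 (ENSMUSG00000040690) lies on chromosome 4 at 130047840 to 130099283 and Perp (ENSMUSG00000019851) on chromosome 10 at 18845020 to 18857073. Ezr (ENSMUSG00000052397) spans 6738041 to 6782784 on chromosome 17 and Reln (ENSMUSG00000042453) 21884454 to 22344702 on chromosome 5. Nkain4 (ENSMUSG00000027574) is on chromosome 2 at 180934772 to 180954699, Idi1 (ENSMUSG00000058258) on chromosome 13 at 8885501 to 8892451 and Bmp4 (ENSMUSG00000021835) on chromosome 14 at 46383520 to 46390669. All are protein-coding genes.

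Cell cycle genes had lower values at E12.5, and this moved with a small number of cells. Of 17 well-measured G2 and M phase genes, 16 had a ratio below 1 in each library (28.3% of all genes did) and none a ratio above 1, and the median was −0.42 (log2). Of the 17, 2 were called lower (0.662% of all genes were), the cyclin Ccnb2 (29.9 and 29.5 CPM at E11.5, 18.2 and 15.1 at E12.5) and the kinetochore motor Cenpe (57.9 and 64.1, 37.4 and 39.6). Without the 100 members of top doublet score (88 at E11.5 and 12 at E12.5), 1 of the 17 was below and 4 were above 1 in each library, and the median was 0.11. Without the 35 members whose barcode was in both libraries, 6 were below 1 in each library and the median was −0.08. S phase genes had a median of −0.21 with no call, or 0.08 without the top doublet scores. The lower S phase value rested on library 2, since library 1 alone gave −0.01 and library 2 alone −0.63; the G2 and M phase median was −0.29 and −0.61. Of the 52 cells with both reporters, which were left out, 20 were marked by the score. The part of doublets in the cell cycle values was not tested.

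Maturity was compared next. Each cell thinned to 4000 UMIs was given a score, the mean log expression of maturing neuron genes (axonal, secretory and synaptic) minus that of newborn neuron genes, and all members were split into tertiles. The median score was −0.19 and −0.11 in the E11.5 libraries and −0.18 and −0.35 in the E12.5 libraries. The least mature tertile held 33.3% and 29.0% of E11.5 cells and 35.3% and 50% of E12.5 cells, and a second random draw of the thinning gave 34.1% and 29.8% at E11.5 and 29.4% and 50% at E12.5. In library 1 the direction thus changed with the draw, and the larger share of less mature E12.5 cells rested on library 2. None of the 22 well-measured maturing neuron genes was called, 11 were below 1 and 3 above 1 in each library, against 28.3% and 28.4% of all genes, and the median was −0.13. Library 1 alone gave a median of 0.00. With the mitochondrial limit of 5% (322 E11.5 and 76 E12.5 cells) the list turned, with 8 above 1, 4 below 1 and a median of 0.07. Of 19 newborn neuron genes, Sstr2 alone was called higher (0.572% of all genes were). In each library 10 of the 19 were above 1 and 2 below 1, against 28.4% and 28.3% of all genes, and the median was 0.15.

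Within tertiles the ratios of genes that track maturity came apart. Gmnc had 349, 157 and 27.3 CPM from the least to the most mature tertile at E11.5 and 420, 143 and 20.4 at E12.5, and the mean of its log2 ratios within tertiles was −0.09, against 0.41 over all cells. Reln, in contrast, had 74.1, 106 and 182 CPM from the least to the most mature tertile at E11.5 and 84.9, 173 and 306 at E12.5, with a mean log2 ratio of 0.55. Perp had 17.8, 58.7 and 49.9 CPM at E11.5 and 30.0, 113 and 120 at E12.5 (0.97), and Ezr 318, 215 and 116 and 496, 357 and 177 (0.66). Reln, Perp and Ezr were thus higher at E12.5 in every tertile, whereas Gmnc was higher in the least mature tertile only. No intervals were computed within tertiles, and at E12.5 they held 79, 63 and 46 cells from the least to the most mature. The lower Gmnc values in the other tertiles (143 against 157 CPM and 20.4 against 27.3) therefore settle no direction.

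Signals and regional identity were examined because the E12.5 group should be restricted to Wnt3a descendants. Of 13 well-measured hem signalling genes, Bmp4 was called lower (0.662% of all genes were). In each library 7 were above 1 and 1, Bmp4, was below 1, against 28.4% and 28.3% of all genes, and the median was 0.26. The list had a like median in other neurons (0.33) and in cells outside the neuron gate (0.26). None of 20 well-measured telencephalic regional factors was called. In each library 10 were above 1 and 6 below 1, against 28.4% and 28.3% of all genes, and the median was 0.11. Members below 1 in each library, singled out after their values were seen, included the nuclear receptors Nr2f1 (197 and 173 CPM at E11.5, 150 and 123 at E12.5) and Nr2f2 (348 and 352, 250 and 263) and the homeodomain cofactor Pbx3 (33.5 and 45.7, 23.7 and 11.6). The members below 1 made up 30% of the list, near the 28.3% of all genes, and the 10 above 1 were not singled out.

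**Figure D5:**
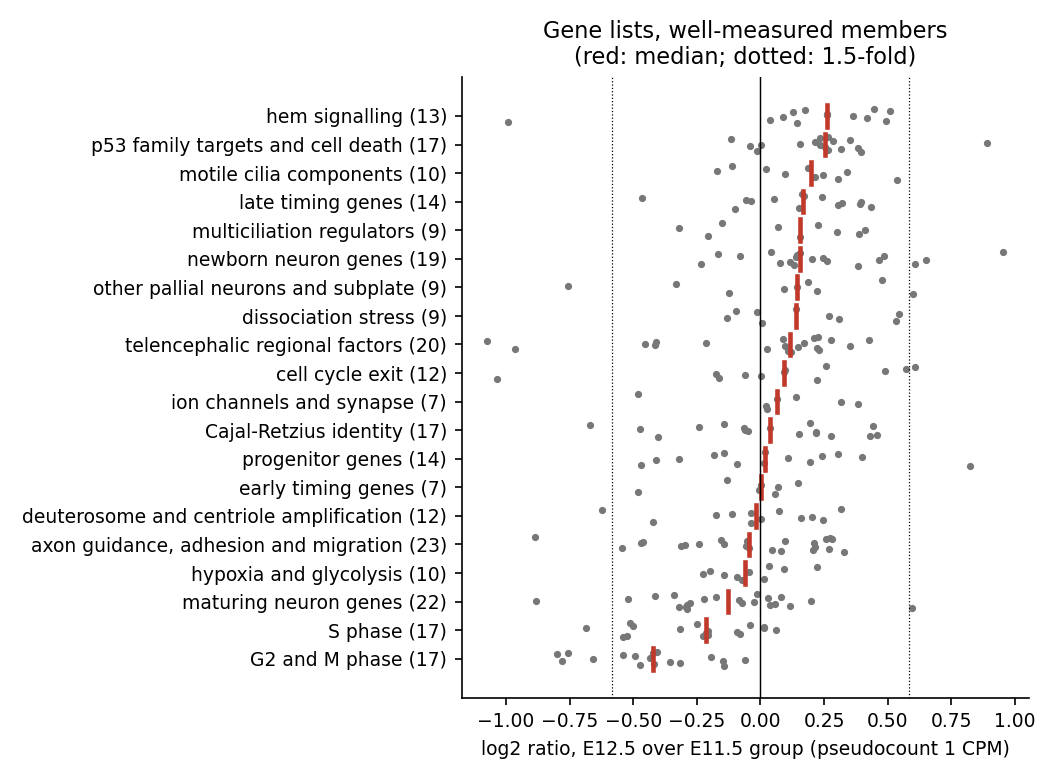
Log2 ratio of the E12.5 to the E11.5 group (x axis) for the well-measured members of each gene list (y axis, number of members in brackets); grey points are genes, red marks list medians and dotted lines the 1.5-fold limit; haemoglobin and lists with under 7 such members are not drawn. The G2 and M phase list has the lowest median drawn, −0.42 (0.11 without top doublet scores), and most members of every other list lie between the dotted lines.

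The same comparison in other cells of the suspension showed that several ratios were shared. Other neurons, those with fewer than 5 UMIs of Trp73 plus Cdkn1a, numbered 1416 with eYFP and 199 with dtTomato, and cells outside the neuron gate 8801 and 1545. Ezr was 1.88-fold [1.74 to 2.03] higher at E12.5 in other neurons and 1.25-fold [1.23 to 1.27] higher outside the gate. In other neurons Rbfox1 had 2.06 [1.43 to 2.91] and Col2a1 1.78 [1.49 to 2.12], whereas Cyp4f16 had 1.05 [0.717 to 1.49] and Ice2 1.08 [0.768 to 1.48]. Col16a1 had 2.32 [1.37 to 3.81] there, but it was scarce (3.12 and 7.23 CPM) and higher in library 1 only. Of the lower genes, Ccnd1 had 0.600 [0.502 to 0.712] and Dpf1 0.589 [0.447 to 0.763] in other neurons, whereas Bmp4 had 1.06 [0.809 to 1.38] and Ybx3 1.01 [0.886 to 1.15]. Perp had 1.16 [0.618 to 2.03] in other neurons, where it was scarce (4.07 and 4.71 CPM). Gmnc had 1.65 [1.45 to 1.87] in other neurons and 0.995 [0.910 to 1.09] outside the gate. Nfia had 0.994 [0.933 to 1.06] in other neurons, against 1.35 in the members. Lhx1 had 15.4 and 1.88 CPM in other neurons (0.122 [0.0444 to 0.269]) and was level in the members. These classes differ in composition between reporters as well as in stage, and the differences between classes were not tested.

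Cells with neither reporter can be cells of either stage whose eYFP or dtTomato was missed, or E12.5 cells outside the Wnt3a lineage. Their levels lay between those of the stages for Reln (143 CPM, against 123 and 167), Nfia (372, against 307 and 415) and Perp (46.1, against 42.8 and 80.3). They lay outside that range for Gmnc (145, against 172 and 229), Tbr1 (492, against 393 and 356) and Ezr (155, against 213 and 374). For Ezr, Gmnc and Tbr1 the neither group was thus further from E12.5 than the E11.5 group was.

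Blood and sex-linked transcripts also differed between the pools. The 7 haemoglobin genes summed to 4825 and 2639 CPM in the E11.5 libraries and 327 and 1831 at E12.5. Of the 7, 2 were called lower (0.662% of all genes were), Hbb-bt and Hbb-bs, for which 49.2% and 50.4% of the E11.5 UMIs came from 1 cell. Without the top doublet scores the log2 ratio of Hbb-bt was 0.10 and the median of the 7 was −0.01, against −1.90 with them. Xist, transcribed from the inactive X of female cells, had 1182 and 1103 CPM at E11.5 and 750 and 859 at E12.5, while the Y-linked Eif2s3y had 15.7 and 17.4 and 36.5 and 25.6 CPM and Uty 7.98 and 7.38 and 15.5 and 19.8. Both sexes were thus present in each pool in unequal proportion, and the part of this in other ratios was not tested.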

How the data were processed

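Per the submitters' processing notes and the file headers, the authors used Cell Ranger 3.1.0 with mm10, and the deposited values are raw UMI counts. The deposited features include eYFP, dtTomato and an IRESCRE sequence. The release of the gene annotation was not stated. The libraries, titled as wild type 1 and 2, are repeats of 1 suspension and count as 1 sample. UMIs were summed per reporter group and library (Python 3.11.15, numpy 2.4.6, pandas 2.3.3, scipy 1.17.1). log2 ratios used a pseudocount of 1 CPM. No doublet caller was applied to the values reported; cells with both reporters were left out, and the alternative without top doublet scores used simulated doublets (2 per cell, 30 principal components), 0.8% of cells per 1000 barcodes, written here after the Scrublet score. Thinning left out cells under 4000 UMIs: 9 of the E11.5 and 2 of the E12.5 group.

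Named genes were the 15 highest and 15 lowest called genes whose Poisson intervals did not overlap, without transgene, mitochondrial, ribosomal, haemoglobin, sex-linked, Gm-number and Rik names, up to 4 called members per list, and 15 genes always named. Members and lists were chosen with earlier results of these data known. Lists besides those in the text had these medians (log2) and calls: progenitor genes 0.02, ion channels and synapse 0.07, other pallial neurons and subplate 0.15, Notch pathway 0.06, caveolar and diaphragm genes 0.22, dissociation stress 0.14 and hypoxia and glycolysis −0.06, each with no call, and cell cycle exit 0.09, with Ccnd1 called lower (0.662% of all genes were). Several of these turned: library 1 and library 2 alone gave 0.14 and −0.44 for progenitor genes, 0.15 and −0.28 for hypoxia and glycolysis, 0.23 and −0.01 for dissociation stress and 0.15 and −0.02 for the Notch pathway. Without top doublet scores progenitor genes had 0.42 (6 of 14 above 1 and 0 below 1 in each library), hypoxia and glycolysis 0.13 (7 of 10 above 1) and ion channels and synapse −0.01. Regions outside the pallium had 2 well-measured members and a median of 0.07. The 8 erythroid markers summed to 16.3 CPM at E11.5 and 9.72 at E12.5. Of the fixed names 1, Ctip2, matched no feature. The call rule was tested on simulated data. Some results are not reported here.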

Additional observations from a re-analysis of the deposited data

Results flagged for a closer look

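Several named genes pointed one way in both libraries of Cajal-Retzius neurons and the other way in both libraries of another cell class of the suspension. None of these differences was tested, the libraries are repeats of 1 suspension, and the classes differ in composition. Reln was 1.36-fold [1.20 to 1.54] higher at E12.5 in Cajal-Retzius neurons and had a ratio of 0.650 [0.420 to 0.968] in other neurons, where it was scarce (13.1 CPM at E11.5 and 8.48 at E12.5). Hist1h1b, a linker histone of dividing cells, had a ratio of 0.523 in the members and 1.12 in other neurons, but without top doublet scores the members' log2 ratio was 0.47, the same direction as in other neurons, and 34% of its E12.5 UMIs were in 1 cell. The other 3 stood against cells outside the neuron gate: Nkain4 had 0.504 in the members and 1.09 there, Chl1 0.519 and 1.21 [1.09 to 1.34], and Foxo1 1.82 and 0.962 [0.843 to 1.09]. For Chl1 the mean log2 ratio within maturation tertiles was −0.05, since it was lower in the most mature tertile alone. In the other tertiles Chl1 was scarce.

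The IRESCRE sequence, which no comparison used, had 40 UMIs in the 17626 kept cells. Of these, 22 were in the 1934 dtTomato cells and 7 in the 11004 eYFP cells, and none was in a Cajal-Retzius neuron.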

How the results depend on the processing

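With 38 genes higher and 44 lower as reported, the counts stayed within 1.5 times under either scaling, a pseudocount of 5 CPM, a mean over cells, both other limits of Trp73 plus Cdkn1a, removal of top doublet scores and removal of members with shared barcodes. Shared counts did not mean the same genes: 24 higher and 21 lower genes were shared without top doublet scores. Leaving out each library in turn gave 152 to 166 higher and 167 to 412 lower genes, more by construction, since 1 library needs no agreement with another. Without a filter beyond 1 UMI there were 957 higher and 2845 lower genes, with 100 UMIs and 50 CPM 14 and 8, and at 2-fold 3 and 7. At least 2 reporter UMIs (689 E11.5 and 152 E12.5 cells) gave 71 lower genes and the mitochondrial limit of 5% (322 and 76 cells) gave 114. The cause was not tested. The mean log2 ratio within maturation tertiles, called without a requirement in each library, gave 78 and 148. The following were chosen after seeing the data: a requirement of the same sign in each tertile, added once the counts 78 and 148 had been seen, gave 66 and 115. Leaving out the top cell of each gene and stage was run first on the summed libraries (62 and 182) and then with the limit in each library (20 and 75), and it weighs more on the smaller E12.5 group. The removal of shared barcodes and the second draw of the thinning were also added then. Thinned to 4000 UMIs, the E11.5 group was 52.7% of Cajal-Retzius neurons, against 61.0%. Directions reversed for BC051142 with the mitochondrial limit of 5% (log2 −0.44) and, without top doublet scores, for Hbb-bt (0.10) and Hist1h1b (0.47). Depth limits the E12.5 group most. No paired analysis was possible because each stage was 1 pool, so the ratios within the libraries, which the call rule uses, are repeats of 1 comparison and no test was made.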
